A study of Mus musculus with 51 samples.

Results

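Transcripts of 39 genes of the lysosome were examined in mouse alveolar macrophages, the resident phagocytes of the lung airspaces. The genes were taken by symbol. They cover the soluble acid hydrolases outside the cathepsin family, the lysosomal membrane proteins, 3 lipid-binding cofactors, the transcription factor TFEB and the subunits of the vacuolar proton pump (V-ATPase). Of the 39, 36 had a probe set that the platform annotation assigned to them alone, out of 12393 such genes on the array. Cd63, Atp6v0c and Atp6v0d2 had none under these symbols and were not analysed here. The 36 comprised 16 hydrolases, 6 membrane proteins, 3 cofactors, Tfeb and 10 V-ATPase subunits or accessory proteins. Where a gene had several probe sets, the one with the highest mean over the 51 arrays stood for it.

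The lysosome is the compartment into which a phagosome matures after a macrophage has taken up a particle. The V-ATPase pumps protons across its membrane, and the low pH lets the hydrolases break down glycans, lipids, proteins and sulfate or phosphate esters. TFEB is a transcription factor that binds E-box elements near the start of many lysosomal genes, and alveolar macrophages use this system on surfactant lipids and on inhaled spores.

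The study instilled conidia of Aspergillus fumigatus, the airborne spores of a mould that causes invasive aspergillosis, or polystyrene beads into mouse lungs, to test whether macrophages of an immune compromised host respond differently. The compromised host was the gp91phox-/- mouse (KO), which lacks the catalytic subunit of the phagocyte NADPH oxidase, and the reference host was the C57Bl/6 mouse (WT). KO macrophages were collected untreated at 0 h and at 2 h and 4 h after the conidia doses labelled e6 and e7 or after mock instillation, with 3 arrays in each of 7 groups. WT macrophages were collected in the same 7 conditions with 4 arrays each, and also at 4 h after beads with 2 arrays. This gave 21 KO and 30 WT arrays. The gene is disrupted in the whole animal, and the labels used here give no age, sex or litter and do not say whether mice were pooled for an array. The labels call the arrays of a group biological replicates, and the p-values measure the spread between them. For mock-instilled WT mice at 4 h, the treatment entry gives conidia whereas the title gives mock, and the grouping follows the title.

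Values are log2 of the deposited signal intensity. A difference is given with the standard error of the limma fit, and a gene was called at an adjusted p under 0.05 (Benjamini-Hochberg over all 22626 probe sets of a comparison). On arrays of whole cell preparations, fewer cells of a type and less RNA per cell cannot be told apart. Cybb, the gene that encodes gp91phox, lay between 6.77 and 9.06 on the KO arrays, against 10.59 to 12.12 on the WT arrays. None of the 13 alveolar macrophage markers was under a signal of 50 on every array of either genotype, and arrays of a group correlated at 0.9 or higher over all probe sets. On 10 arrays a smaller share of the probe sets had a signal under 50, namely 30.1% to 37.7%, against 40.1% to 44.9% on the others. These were all 3 arrays of KO at 2 h with e7 and of KO at 4 h with e6, replicates 1 and 3 of KO 4 h mock, replicate 1 of KO 4 h e7 and replicate 1 of WT beads. All 36 main probe sets had a signal of at least 50 on every array, so no low filter touched them.

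Promoters of 33 of the 39 genes were held by RefSeq for assembly GRCm38.p6, as the stretch from 250 bases before to 50 bases after the start. The E-box core CACGTG, which reads the same on both strands, occurred in 10 of the 33 (30.3%), against 2187 of all 27025 genes with a promoter (8.09%). The 10 were Arsa, Atp6v0b, Atp6v0d1, Atp6v1a, Gaa, Gla, Glb1, Lamp1, Lgmn and Mcoln1. The longer form TCACGTGA, which contains the core, occurred in 4 genes (12.1%), namely Atp6v0d1, Atp6v1a, Gla and Mcoln1, against 1.12% of all genes. A match describes these letters only. 4 promoters are printed, 5′ to 3′ on the strand of the gene, because Gla and Lgmn are among the members with the largest difference between the genotypes and Glb1 and Arsa are among those that fell most after e7 conidia in WT. The 4 were taken from the genes with the core. Acp5, Neu1 and Ppt1, with differences of like size or larger than those of some of the 4, have a promoter entry without it. Capitals mark the E-box core.
Gla, chrX:134600956-134601255, minus strand: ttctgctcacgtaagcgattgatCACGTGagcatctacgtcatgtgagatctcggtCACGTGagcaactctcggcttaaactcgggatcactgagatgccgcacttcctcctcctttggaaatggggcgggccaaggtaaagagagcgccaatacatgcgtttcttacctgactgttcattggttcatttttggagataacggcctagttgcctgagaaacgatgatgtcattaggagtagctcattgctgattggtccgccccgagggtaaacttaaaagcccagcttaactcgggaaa
Lgmn, chr12:102439043-102439342, minus strand: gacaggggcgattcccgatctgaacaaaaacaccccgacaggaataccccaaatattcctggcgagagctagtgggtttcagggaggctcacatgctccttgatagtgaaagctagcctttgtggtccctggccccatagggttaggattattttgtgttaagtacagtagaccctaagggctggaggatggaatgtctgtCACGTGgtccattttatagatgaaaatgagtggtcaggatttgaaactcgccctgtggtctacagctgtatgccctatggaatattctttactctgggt
Glb1, chr9:114400828-114401127, plus strand: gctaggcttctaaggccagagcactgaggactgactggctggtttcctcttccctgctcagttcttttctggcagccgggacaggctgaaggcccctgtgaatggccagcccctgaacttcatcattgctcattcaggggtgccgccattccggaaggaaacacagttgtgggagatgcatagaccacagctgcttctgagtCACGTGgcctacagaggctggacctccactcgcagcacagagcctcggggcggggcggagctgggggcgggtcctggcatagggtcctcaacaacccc
Arsa, chr15:89477375-89477674, minus strand: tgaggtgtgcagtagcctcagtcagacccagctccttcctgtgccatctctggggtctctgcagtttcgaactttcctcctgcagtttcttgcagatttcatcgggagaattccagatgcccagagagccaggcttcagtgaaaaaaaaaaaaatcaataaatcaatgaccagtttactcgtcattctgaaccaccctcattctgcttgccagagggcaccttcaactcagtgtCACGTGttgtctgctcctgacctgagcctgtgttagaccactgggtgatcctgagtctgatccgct
The cores began 227 and 194 bases before the start in Gla, 49 bases before it in Lgmn, 48 in Glb1 and 16 in Arsa.

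Lysosomal transcripts were mostly higher in KO than in WT macrophages. As a mean over the 7 conditions that both genotypes had, 26 of the 36 genes were called, 23 of them higher and 3 lower in KO. Over all probe sets 33.4% were called in this comparison, 21.9% higher and 11.6% lower. The median difference of the 36 genes was 0.23, against 0.09 over all genes. After quantile normalization the medians were 0.20 for the 36 genes and -0.03 for all genes, and 22 members were called higher and 1 lower. By role, 9 of the 16 hydrolases were higher and 2 lower, 4 of the 6 membrane proteins were higher, 2 of the 3 cofactors were higher and 1 lower, Tfeb was higher, and 7 of the 10 V-ATPase genes were higher and none lower.

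**Figure D1:**
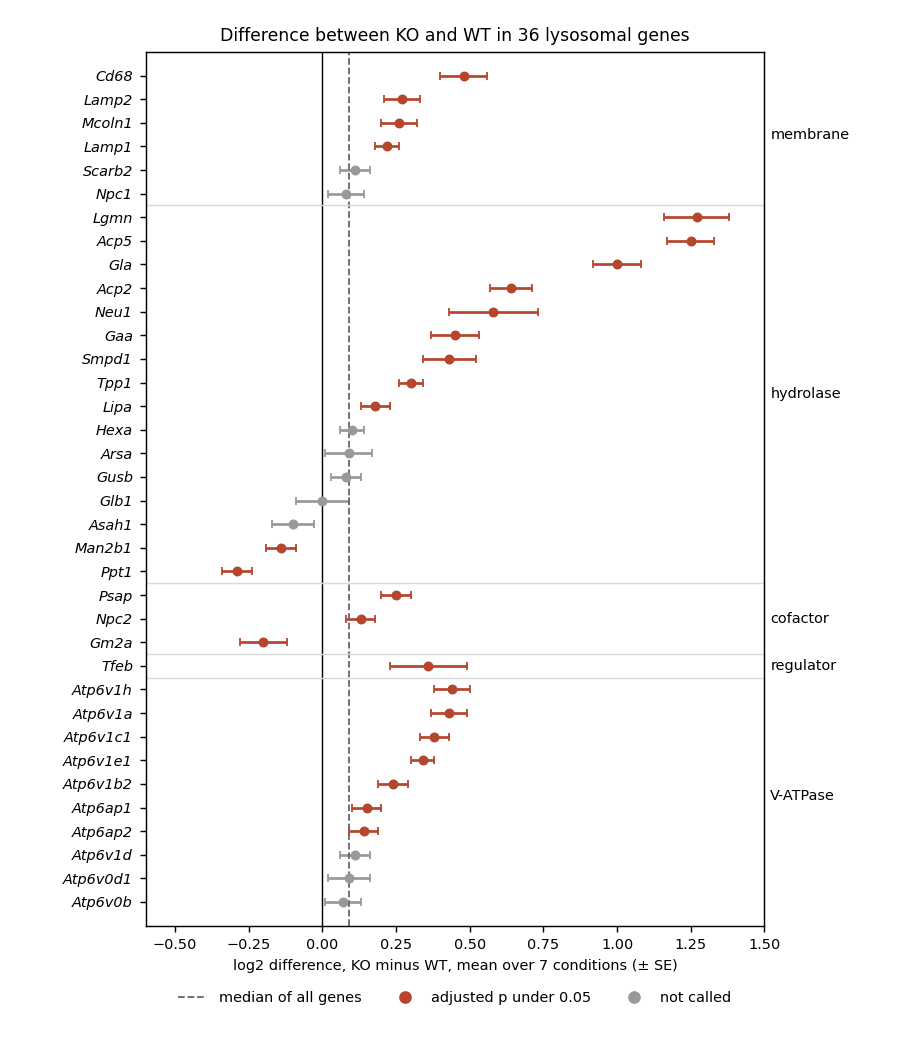
KO minus WT difference in log2 signal, as a mean over 7 conditions, for each of the 36 genes in order of role (x axis, log2, with the limma standard error). Red points were called, grey points were not, and the dashed line is the median of all genes at 0.09. Lgmn, Acp5 and Gla lie at 1.0 or above, and Man2b1, Gm2a and Ppt1 are the 3 called points below 0.

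Among the hydrolases, 3 stood well above the rest. Acp5 encodes tartrate-resistant acid phosphatase, an enzyme of macrophages and osteoclasts (Entrez Gene 11433). Its signal ran from 11.26 through a median of 12.05 to 12.33 on the 21 KO arrays, against 9.62, 10.80 and 11.25 on the 28 WT arrays of the same conditions. Every KO array was above every WT array, across all conditions together. The difference was 1.25 ± 0.08, a 2.38-fold higher signal in KO (adjusted p = 4.8e-16). Lgmn encodes legumain, the asparaginyl endopeptidase that also processes other lysosomal proteases (Entrez Gene 19141). It ran from 10.66 through 11.23 to 11.86 on KO arrays, against 8.33, 10.02 and 10.70 on WT arrays, with a difference of 1.27 ± 0.11 (2.42-fold, adjusted p = 6.15e-12). Its ranges overlapped slightly when conditions were put together, and not within any condition. Gla encodes alpha-galactosidase A, which removes galactose from glycolipids (Entrez Gene 11605). It ran from 9.32 through 9.98 to 10.54 on KO arrays, against 8.37, 8.87 and 9.61 on WT arrays, with a difference of 1.0 ± 0.08 (adjusted p = 8.45e-13). The mean of both Gla probe sets gave 1.24.

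Within each of the 7 conditions taken alone, every KO array was above every WT array for Acp5, Lgmn and Gla. That pattern was seen in 85 of the 12393 genes (0.686%). In untreated mice Acp5 was 11.91, 11.47 and 11.26 on the KO arrays, against 10.87, 10.64, 10.92 and 10.93 on the WT arrays. Lgmn was 11.27, 10.99 and 10.86 in untreated KO macrophages, against 9.53, 10.06, 10.02 and 10.37 in untreated WT macrophages. Gla was 10.03, 9.68 and 9.32 in untreated KO macrophages, against 8.74, 8.56, 8.83 and 8.77 in untreated WT macrophages. The difference was largest at 4 h with e7 conidia for each of them, at 1.79 for Acp5, 2.18 for Lgmn and 1.42 for Gla, and smallest in untreated mice for Acp5 (0.71), at 2 h with e7 for Lgmn (0.96) and at 4 h with mock for Gla (0.77). At 4 h with e7 in WT, replicates 2 and 3 were lowest, at 9.94 and 9.62 for Acp5, against 10.60 and 10.64 on the others. For Lgmn they were 9.36 and 8.33, against 9.87 and 10.03. The genotype difference in the 4 h response to e7 was not called for any member.

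**Figure D2:**
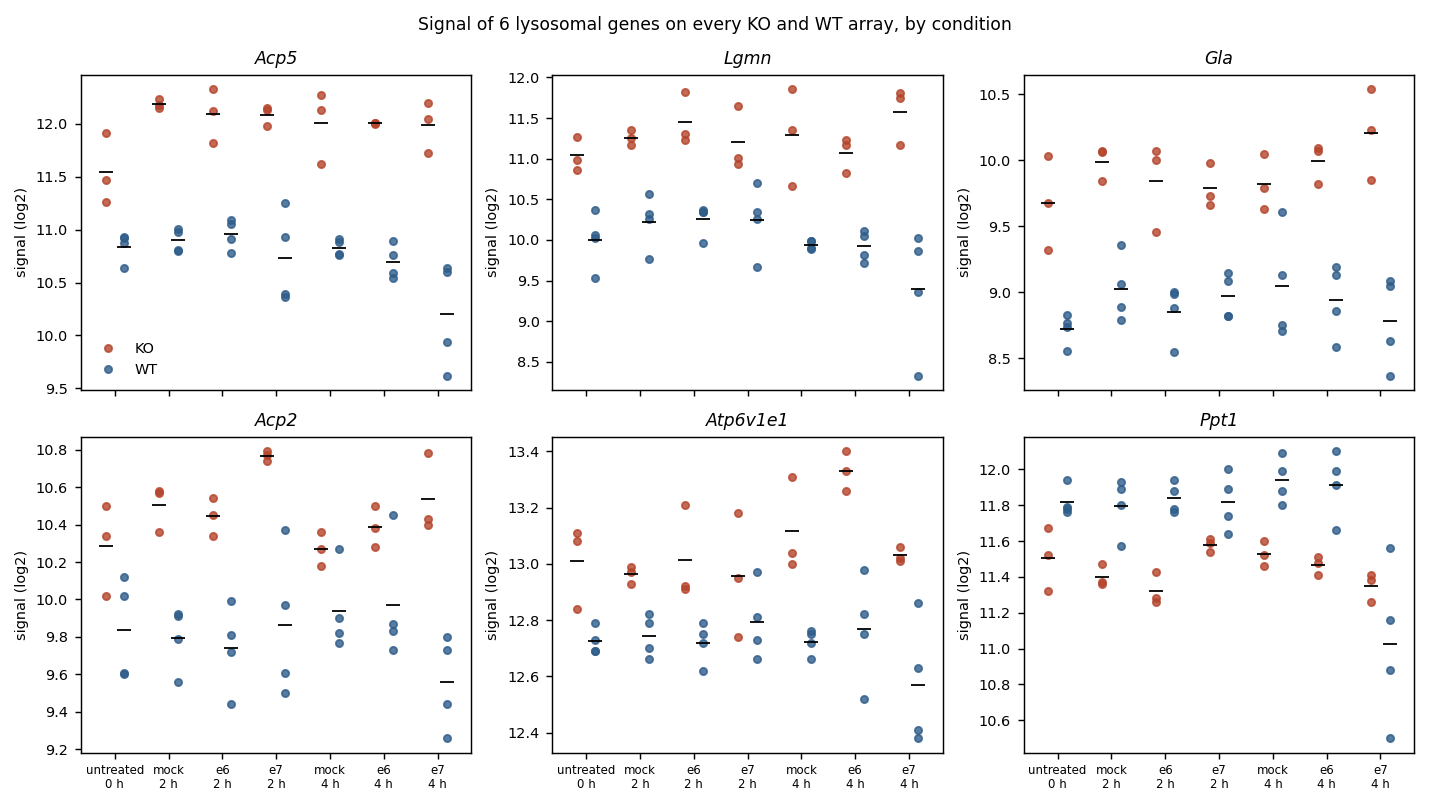
Log2 signal (y axes) of 6 genes on every array, by condition (x axes), with KO in red left of WT in blue and a bar at each group mean. For Acp5, Lgmn and Gla all KO points lie above all WT points in each condition, and for Ppt1 all KO points lie below all WT points in 6 of the 7.

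Acp2, the membrane-anchored lysosomal acid phosphatase, was higher in KO by 0.64 ± 0.07 (adjusted p = 2.1e-09), and its 2 further probe sets gave 0.69 and 0.48. Neu1, the sialidase that trims sialic acids from glycoproteins, was higher by 0.58 ± 0.15 (adjusted p = 0.00285). The Neu1 value drew much of its size from 4 h with e7, where KO averaged 9.91 ± 0.17 and WT 7.80 ± 1.69 (SD, n = 3 and 4), a difference of 2.11, against 0.18 to 0.43 in the other conditions. The mean of all 3 Neu1 probe sets gave a difference of 0.04. Gaa, the acid alpha-glucosidase that degrades glycogen, was higher by 0.45 ± 0.08, and Smpd1, the acid sphingomyelinase, by 0.43 ± 0.09. Smpd1 differed by 1.22 at 4 h with e7, and by -0.27 in untreated mice. Tpp1, a tripeptidyl peptidase, and Lipa, the acid lipase that frees cholesterol from its esters, were higher by 0.30 and 0.18.

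On their main probe sets, 3 members ran the other way. Ppt1, a thioesterase that removes palmitate from proteins, was lower in KO by 0.29 ± 0.05 on the log2 scale (-0.29, adjusted p = 9.05e-05). It was 11.32, 11.67 and 11.52 on untreated KO arrays, against 11.79, 11.94, 11.78 and 11.76 on untreated WT arrays. All KO arrays were below all WT arrays in 6 of the 7 conditions, and at 4 h with e7 the KO mean was higher by 0.32. The share of all genes with KO below WT in this way was not counted. Man2b1, an alpha-mannosidase, differed by -0.14 and Gm2a, the activator protein that presents GM2 ganglioside to hexosaminidase, by -0.20. The call of Man2b1 was lost in 30 of the 49 fits that each left out 1 array, and that of Gm2a in 13. With the mean of both probe sets of a gene, Man2b1 differed by -0.12 and Gm2a by -0.04. Neither was then called in limma (adjusted p = 0.141 and 0.757), while Ppt1 was called at -0.23.

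Of the membrane proteins, Cd68, a heavily glycosylated protein of macrophage lysosomes, was higher in KO by 0.48 ± 0.08 (adjusted p = 7.3e-06). Lamp2 and Lamp1, the abundant glycoproteins that line the membrane, were higher by 0.27 and 0.22, and Mcoln1, a calcium channel, by 0.26. Scarb2, the receptor that sorts glucocerebrosidase to lysosomes, and Npc1, the cholesterol exporter, differed by 0.11 and 0.08 and were not called. Psap, the precursor of the saposins that present sphingolipids to hydrolases, was higher by 0.25, and Npc2, which hands cholesterol to Npc1, by 0.13. Tfeb was higher by 0.36 ± 0.13 (adjusted p = 0.0252). The calls of Npc2 and of Tfeb were each lost without 1 array, replicate 1 of KO 4 h e7 for Npc2 and replicate 2 of KO 4 h mock for Tfeb.

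The V-ATPase consists of a cytosolic V1 sector that hydrolyses ATP and a membrane V0 sector that carries the protons. All 5 V1 genes called were higher in KO, with Atp6v1h at 0.44 ± 0.06, Atp6v1a at 0.43 ± 0.06, Atp6v1c1 at 0.38 ± 0.05, Atp6v1e1 at 0.34 ± 0.04 and Atp6v1b2 at 0.24 ± 0.05. The sixth V1 gene, Atp6v1d, differed by 0.11 on its main probe set and was not called, and its other 2 probe sets were called at 0.28 and 0.35. The V0 genes Atp6v0d1 and Atp6v0b differed by 0.09 and 0.07 and were not called, while both other probe sets of Atp6v0b were called, at 0.35 and 0.19. The accessory genes Atp6ap1 and Atp6ap2 were higher by 0.15 and 0.14. The call of Atp6ap2 was lost without replicate 1 of KO 4 h e7. For Atp6v1e1 all KO arrays were above all WT arrays in 6 of the 7 conditions, and for Atp6v1c1 and Atp6v1h in 5. That pattern in at least 5 of the 7 was seen in 6 members and in 280 of the 12393 genes (2.26%). Atp6v1c1, which encodes the subunit that holds the 2 sectors together, was 13.32, 13.22 and 13.09 on untreated KO arrays, against 12.83, 12.56, 12.55 and 12.61 on untreated WT arrays. Its KO arrays overlapped its WT arrays at 2 h and 4 h with e7, where its mean differed by 0.04 and -0.10.

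Of the 10 arrays with fewer low signals, 9 were KO arrays. Over untreated, 2 h mock and 2 h e6 alone, the conditions without such an array, 12 members remained of the 26 called, 11 higher and 1 lower, against 9.83% of all probe sets. The 12 were Acp5, Lgmn, Gla, Acp2, Tpp1, Cd68, Psap, Atp6v1b2, Atp6v1c1, Atp6v1e1, Atp6v1h and Ppt1. Smpd1 differed there by -0.03, Lipa by 0.02 and Tfeb by 0.03. Some markers of other cells were also called between the genotypes. In the T and NK cell list 6 of 7 measured markers were higher in KO, and the summed signal of the list ran from 65 to 539 on KO arrays, against 41 to 176 on WT arrays without beads. Cd3e was under 50 on every array of both, and 6 of the 7 markers were so on the WT arrays without beads. On untreated KO and KO 2 h mock arrays all 7 were under 50, with sums of 95 to 163 and 65 to 165. The sums were 432 to 539 in KO 4 h e6, 299 to 395 in KO 2 h e7 and 281 to 379 in KO 4 h mock. All arrays of the first 2 of these groups had fewer low signals, and replicates 1 and 3 of the third. In untreated mice none of the 7 was called between the genotypes. In the monocyte and dendritic cell list 3 of 6 were higher, with sums from 175 to 600 in KO and 136 to 296 in WT, and in the endothelial and stromal list 4 of 8, with 274 to 854 in KO and 249 to 599 in WT. On every WT array without beads, 3 markers of the first list and 5 of the second were under 50. Among them were Itgam, Col1a1 and Cdh5, which were called. The alveolar macrophage list had 5 of 13 higher and 1 lower, with sums of 114488 to 142574 in KO and 99047 to 142112 in WT. The lung epithelium list had 2 of 12 higher and 2 lower, and the neutrophil list 1 of 11 higher and 1 lower. In the B cell list 1 of 5 was higher, Pax5, which was under 50 on every array of both genotypes. In the erythroid list none of 2 was called. The part of these markers in the lysosomal differences was not tested.

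In untreated macrophages alone, 3 arrays against 4, 3 of the 36 genes were called, all higher in KO, against 1.99% of all probe sets, 1.15% higher and 0.84% lower. Gla differed by 0.95 ± 0.21 (adjusted p = 0.00714), Atp6v1c1 by 0.57 ± 0.12 (adjusted p = 0.00714) and Lgmn by 1.04 ± 0.28 (adjusted p = 0.0425). With the mean of both Gla probe sets the difference was 0.65 and was not called (adjusted p = 0.451 in limma). The mean of all 3 Atp6v1c1 probe sets gave 0.77 and was called. Acp5 differed by 0.71 and Atp6v1h by 0.55, with adjusted p-values of 0.0547 and 0.0541. Without replicate 1 of untreated KO none of the 36 genes was called, and without replicate 3 there were 5.

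After e7 conidia at 4 h in WT macrophages, a group of hydrolase transcripts was lower and a pair of V-ATPase transcripts higher. Of the 36 genes, 12 were called against mock (33.3%), 8 lower and 4 higher, against 15.5% of all probe sets, 9.68% lower and 5.84% higher. Among the hydrolases 7 of 16 fell and 1 rose, with a median difference of -0.46. Among the V-ATPase genes 2 of 10 rose and none fell, with a median of 0.25. The median over all genes was -0.08. After quantile normalization 9 of the 12 were called, 2 higher and 7 lower, and Psap, Hexa and Gaa missed the threshold at 0.39, 0.27 and -0.43.

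Neu1 had the largest fall. It was 8.76, 7.31, 5.65 and 9.47 on the 4 e7 arrays, against 9.50, 9.55, 9.74 and 9.54 on the 4 mock arrays. Replicates 2 and 3 of e7 were far below the mock arrays and replicate 4 was just below them. The difference was -1.79 ± 0.36 (adjusted p = 0.000944). The other 2 Neu1 probe sets differed by -0.27 and 0.35 and were not called, and the mean of all 3 gave -0.57 (adjusted p = 0.382). Without e7 replicate 3 the difference of the main probe set was -1.07.

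Glb1, the lysosomal beta-galactosidase, was 8.69, 7.98, 7.69 and 9.31 after e7, against 9.44, 9.54, 9.11 and 9.83 after mock. Replicate 4 of e7 lay within the range of the mock arrays and the other e7 arrays below it, and the difference was -1.06 ± 0.21 (adjusted p = 0.00085). Ppt1 was 11.16, 10.88, 10.50 and 11.56 after e7, against 11.99, 12.09, 11.88 and 11.80 after mock. All e7 arrays were below all mock arrays, and the difference was -0.92 ± 0.13 (adjusted p = 4.07e-05). The second probe set of Ppt1 differed by -0.24 and was not called. Arsa, the arylsulfatase that degrades sulfatides, was 9.28, 8.36, 8.60 and 9.97 after e7, against 9.85, 10.01, 9.83 and 9.91 after mock. Replicate 4 of e7 was among the mock arrays and the other 3 below, and the difference was -0.85 ± 0.20 (adjusted p = 0.00371).

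Smaller falls were seen in Acp5, Cd68, Gaa and Tpp1. Acp5 was 10.60, 9.94, 9.62 and 10.64 after e7, against 10.77, 10.91, 10.88 and 10.76 after mock, with no overlap and a difference of -0.63 ± 0.19. Cd68 was 12.67, 12.64, 11.65 and 13.06 after e7, against 13.09, 13.21, 13.17 and 12.90 after mock. Replicate 3 of e7 was the lowest for Cd68, replicate 4 lay among the mock arrays, and the difference was -0.59 ± 0.19, against -0.30 and no call without replicate 3. Gaa was 9.33, 8.51, 8.55 and 9.28 after e7, against 9.34, 9.58, 9.28 and 9.69 after mock. Replicates 2 and 3 of e7 were well below the mock arrays, with a difference of -0.56 ± 0.20, and its second probe set was called at -0.94. Tpp1 was 11.83, 11.90, 11.80 and 12.21 after e7, against 12.17, 12.31, 12.19 and 12.38 after mock, a difference of -0.33 ± 0.11. Here replicates 1 to 3 of e7 were below the mock arrays, and the second probe set of Tpp1 differed by 0.29 and was not called.

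The 4 genes that rose were Atp6v1h, Atp6v1c1, Psap and Hexa, the alpha chain of beta-hexosaminidase. Atp6v1h, the regulatory H subunit of V1, was 11.19, 11.30, 10.85 and 10.81 after e7, against 10.57, 10.27, 10.47 and 10.66 after mock, a difference of 0.55 ± 0.14 (adjusted p = 0.00787). Atp6v1c1 was 13.18, 13.30, 13.38 and 12.84 after e7, against 12.67, 12.61, 12.68 and 12.66 after mock, a difference of 0.52 ± 0.12 (adjusted p = 0.00202). For both subunits all e7 arrays were above all mock arrays, and the other 2 probe sets of Atp6v1c1 were called as well, at 0.53 and 0.65. Psap was 14.05, 14.23, 14.23 and 13.94 after e7, against 13.56, 13.63, 13.50 and 13.89 after mock, a difference of 0.46 ± 0.12 without overlap. Hexa was 13.74, 13.65, 13.75 and 13.34 after e7, against 13.30, 13.39, 13.24 and 13.37 after mock, a difference of 0.30 ± 0.10. Replicate 4 of e7 lay among the mock arrays for Hexa. In KO macrophages after e7 at 4 h, Atp6v1h and Atp6v1c1 averaged 11.15 ± 0.16 and 13.08 ± 0.09 (SD, n = 3), against 11.04 ± 0.25 and 13.18 ± 0.24 in WT (SD, n = 4), and the arrays of the genotypes overlapped there for both.

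**Figure D3:**
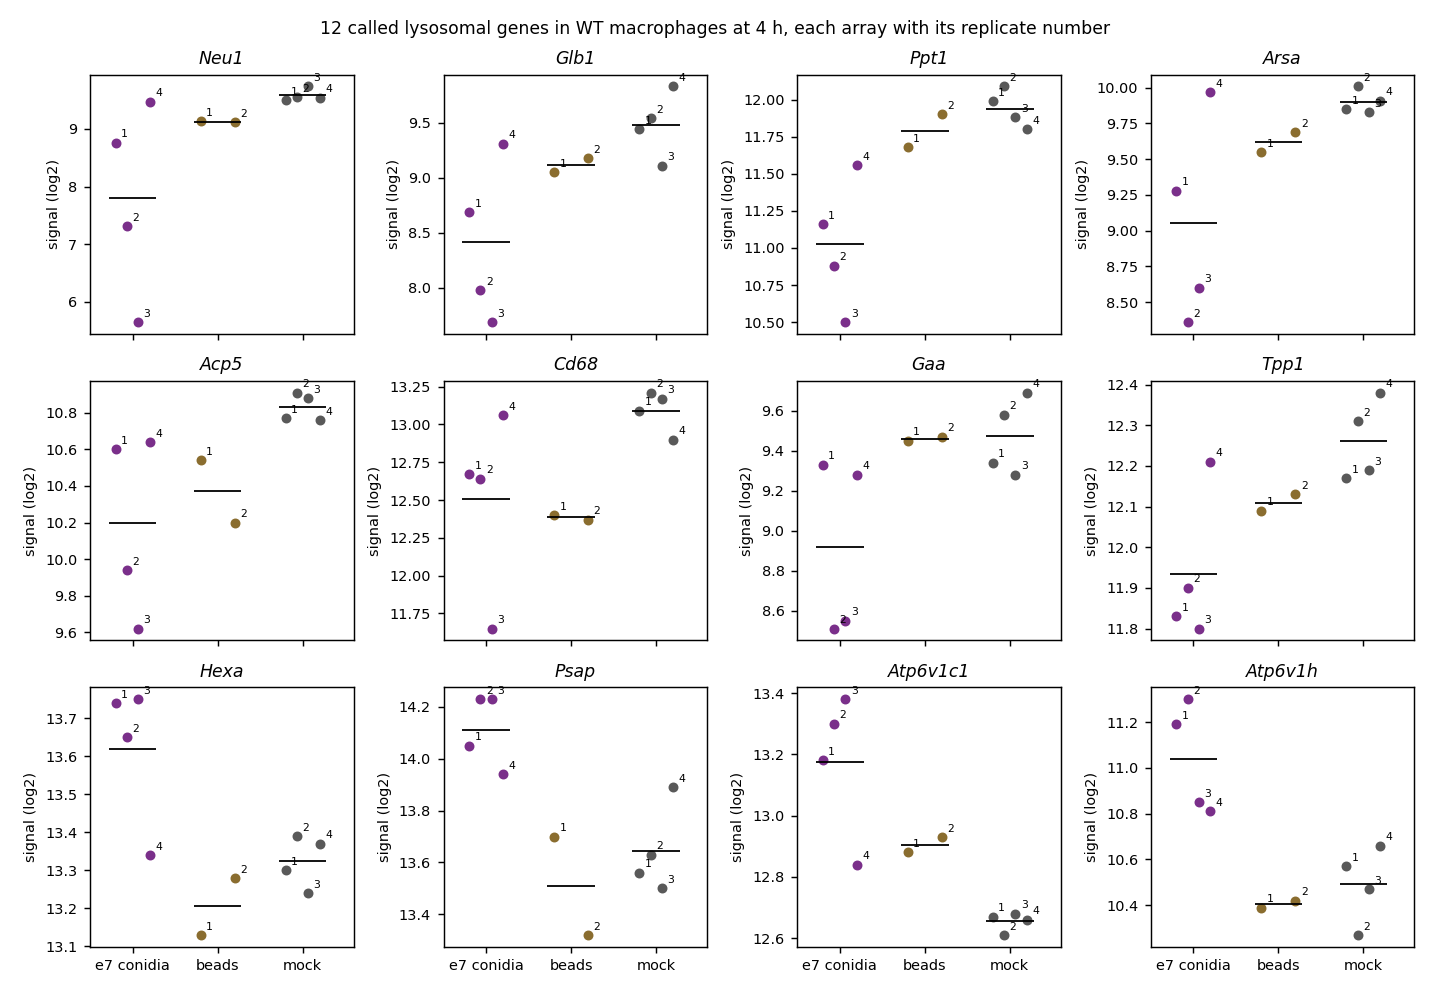
Log2 signal (y axes) of the 12 called genes in WT macrophages at 4 h, with e7 conidia left, beads in the middle and mock right (x axes). Each point is 1 array marked with its replicate number, and the bar is the group mean. Replicates 2 and 3 of e7 hold the lowest values of Neu1, Glb1, Ppt1, Arsa, Acp5 and Gaa.

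The e7 arrays at 4 h in WT did not behave alike. Without its replicates 2 and 3, 1 member was called, Ppt1 at -0.58. Without replicate 2 alone or replicate 3 alone there were 7 in each case, and without replicate 4 there were 17. A fit of these 8 arrays by themselves called none of the members. The calls of Glb1, Neu1, Ppt1, Arsa, Psap and Atp6v1c1 were kept in all 8 fits that left out 1 array of either group. Those of Tpp1, Gaa and Hexa were each lost in 5 of the 8, that of Cd68 in 4, that of Acp5 in 2 and that of Atp6v1h in 1. The log2 ratio of 3′ to 5′ signal of the Actb and Gapdh controls, a measure of RNA quality, was 1.64, 2.34, 3.83 and 1.26 on the e7 arrays, against 1.19 to 2.34 on the mock arrays. With this ratio as a covariate 11 members were called. Neutrophil markers were high on 3 WT arrays at 4 h, with summed signals of 9488 on e7 replicate 3, 13911 on e6 replicate 4 and 30459 on mock replicate 3, against at most 1832 on the other WT arrays at that time. Without these 3 arrays 5 members were called, 3 lower and 2 higher. The part of the neutrophil markers in the difference was not tested.

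Set against the lower dose, e7 gave a like picture in WT at 4 h. 11 members were called between e7 and e6, 6 lower and 5 higher, against 16.4% of all probe sets, 10% lower and 6.42% higher. The lower ones were Neu1 (-1.76), Glb1 (-1.15), Arsa (-0.93), Ppt1 (-0.89), Gaa (-0.72) and Tpp1 (-0.44). The higher ones were Psap (0.70), Atp6v1h (0.65), Atp6v1c1 (0.54), Atp6v1b2 (0.38) and Hexa (0.32). With the mean of a gene's probe sets Neu1 (-0.53), Tpp1 (-0.17) and Atp6v1b2 (0.37) were not called, and the other named genes were. This comparison and the one with mock share the e7 arrays. Without e7 replicates 2 and 3 there were 2 calls, and without e7 replicate 4 there were 19.

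Beads allow the response to a particle without a living spore to be set beside that to conidia, with 2 bead arrays. Against beads, 4 members were called with e7, 1 lower and 3 higher, against 3.59% of all probe sets, 2.22% lower and 1.37% higher. The median over all genes was itself -0.26, and -0.06 after quantile normalization. The log2 3′ to 5′ ratio of the control transcripts was 1.26 to 3.83 on the e7 arrays, against 4.11 and 5.32 on the bead arrays. With it as a covariate 7 members were called. Of the 4 calls made without it, those of Ppt1, Psap and Hexa were kept and that of Atp6v1h was lost. The part of the ratio in the 4 calls was not otherwise tested. Ppt1 was lower, at 11.16, 10.88, 10.50 and 11.56 after e7 and 11.68 and 11.90 after beads, a difference of -0.76 ± 0.16 (adjusted p = 0.00739). Atp6v1h was higher by 0.63, Psap by 0.60 and Hexa by 0.42. Neu1 was 9.13 and 9.12 on the bead arrays and differed by -1.33 ± 0.45 without being called (adjusted p = 0.0842). Single arrays moved this count, which was 1 without bead replicate 1, 0 without bead replicate 2, 1 without e7 replicate 2 and 10 without e7 replicate 4. It was also 0 without e7 replicates 2 and 3, and 2 after quantile normalization, Ppt1 lower and Atp6v1h higher.

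Beads against mock called no member, against 1.14% of all probe sets, with 3 members at an unadjusted p under 0.05 in limma. The median over all genes was 0.16, and the 3′ to 5′ ratio of the bead arrays lay above that of the mock arrays, at 4.11 and 5.32 against 1.19 to 2.34. Cd68 was 12.40 and 12.37 after beads, against 13.09, 13.21, 13.17 and 12.90 after mock, and differed by -0.71 ± 0.23 (adjusted p = 0.104). Atp6v1a, the catalytic subunit of V1, was 12.46 and 12.43 after beads, against 11.76, 11.62, 11.79 and 12.33 after mock, and differed by 0.57 ± 0.19 (adjusted p = 0.116). In both genes the bead arrays lay outside the range of the mock arrays. Without mock replicate 4 there was 1 call.

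In KO macrophages at 4 h, e7 conidia against mock called none of the 36 genes and 0.00442% of all probe sets, with 3 members at an unadjusted p under 0.05 in limma. The 16 hydrolases had a median difference of -0.02 and lay between -0.18 and 0.38. Neu1 was 9.73, 10.06 and 9.93 after e7, against 9.90, 10.24 and 9.71 after mock. Glb1 was 9.38, 9.45 and 9.42 after e7, against 9.44, 9.37 and 9.29 after mock. Arsa was 9.71, 10.02 and 9.84 after e7, against 10, 9.93 and 9.88 after mock, so that the arrays of these 3 genes overlapped between e7 and mock. The largest differences were those of Gm2a at 0.72 ± 0.21 (adjusted p = 0.328) and Npc2 at -0.48 ± 0.13 (adjusted p = 0.229). Npc2 was 13.72, 13.88 and 13.83 after mock, 13.96, 13.85 and 13.93 after e6, and 13.49, 13.19 and 13.31 after e7, with every e7 array below every array of the other two. Between e7 and e6 it was the 1 member called, at -0.58 (adjusted p = 0.021), against 0.897% of all probe sets, 0.566% lower and 0.331% higher. That call was lost after quantile normalization (-0.29) and without any 1 of 4 arrays, replicates 1 and 3 of e6 and replicates 2 and 3 of e7. It was also lost with the 3′ to 5′ ratio of the controls as a covariate. The log2 ratio was 0.93 to 1.18 on the e7 arrays, against 1.83 to 3.99 on the e6 arrays and 1.41 to 2.61 on the mock arrays. All e6 arrays and replicate 1 of e7 were among those with fewer low signals.

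The difference between the genotypes in the 4 h response to e7 was tested directly and called no member, against 0.19% of all probe sets. In limma 18 of the 36 had an unadjusted p under 0.05, as had 3879 of the 22626 probe sets. The lowest adjusted p was that of Ppt1, 0.0741, for a response that was 0.74 ± 0.20 higher in KO than in WT. Next came Glb1 with 1.11 ± 0.33 (adjusted p = 0.0821), Atp6v1c1 with -0.58 ± 0.18 (adjusted p = 0.0903) and Neu1 with 1.74 ± 0.56 (adjusted p = 0.103). Without WT e7 replicate 4 there were 10 calls, 6 of a higher and 4 of a lower response in KO. The falls called in WT and not in KO were thus not shown to differ between the genotypes with all arrays in the fit.

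**Figure D4:**
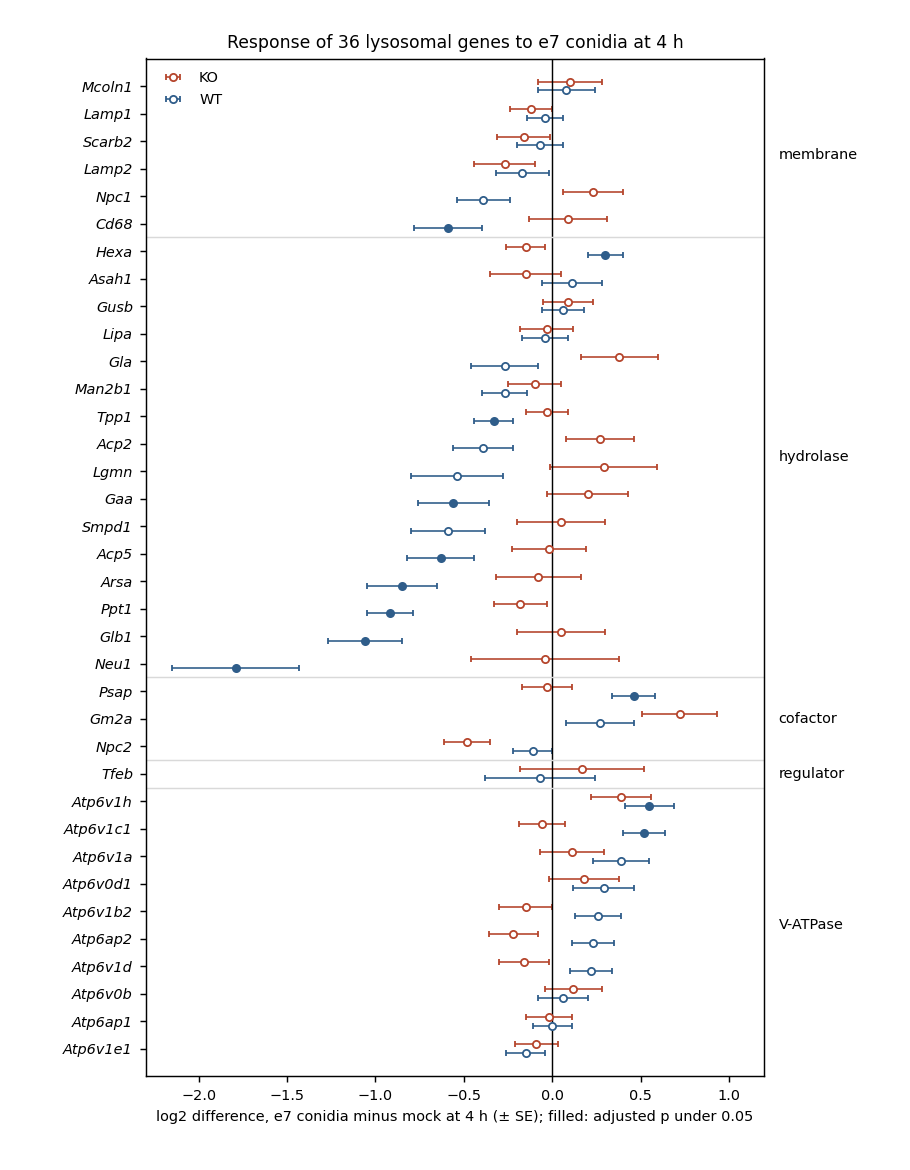
Difference in log2 signal between e7 conidia and mock at 4 h (x axis, with the limma standard error) for the 36 genes in order of role, KO in red above WT in blue. Filled points were called, open points were not. The filled points are 12 WT points, with Neu1 at -1.79 farthest from 0, and the KO hydrolases lie between -0.18 and 0.38.

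At 2 h in KO macrophages, e7 against mock called 3 members (8.33%), 2 higher and 1 lower. That share was close to the 8.65% of all probe sets called, 6.11% higher and 2.54% lower. The median over all genes was itself 0.23 there, against 0.02 after quantile normalization. Npc1 was 11.01, 11.07 and 10.80 after e7, against 10.44, 10.35 and 10.41 after mock, a difference of 0.56 ± 0.17 (adjusted p = 0.0357). Atp6v1a was 12.73, 12.87 and 12.84 after e7, against 12.32, 12.18 and 12.18 after mock, a difference of 0.59 ± 0.18 (adjusted p = 0.0362). The mean of both Atp6v1a probe sets differed by 0.30 and was not called in limma (adjusted p = 0.265). Cd68 was 13.16, 13.01 and 13.02 after e7, against 13.69, 13.83 and 13.73 after mock, a difference of -0.69 ± 0.22 (adjusted p = 0.0417). No array overlapped between the groups for these 3 genes, but leaving out any 1 of the 6 arrays left no call. The share of all genes without overlap was not counted. The call of Cd68 was also lost after quantile normalization (-0.44), which left 2 members higher and 0 lower, and all 3 e7 arrays were among those with fewer low signals. Between e7 and e6, 3 members were called (8.33%), against 7.06% of all probe sets, 4.76% higher and 2.29% lower. These were Npc1 at 0.67, Atp6v1a at 0.61 and Atp6v1c1 at -0.47. After quantile normalization Atp6v1c1 was at -0.32 and no longer called. With the mean of a gene's probe sets Atp6v1a was at 0.38 and Atp6v1c1 at -0.26, both not called, and Npc1 stayed called at 0.67. The count fell to 0 without replicate 3 of e6, replicate 1 of e7 or replicate 2 of e7, and to 1 without replicate 2 of e6 or replicate 3 of e7.

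In WT macrophages at 2 h, e7 against mock called no member, against 1.61% of all probe sets, with 4 members at an unadjusted p under 0.05 in limma. Cd68 was 12.39, 12.69, 12.89 and 12.73 after e7, against 13.10, 13.47, 13.50 and 13.12 after mock. All e7 arrays were below all mock arrays, and the difference was -0.63 ± 0.19 (adjusted p = 0.0742). Mcoln1 was 10.61, 10.48, 10.66 and 10.49 after e7, against 10.14, 10.17, 10.17 and 10.31 after mock, without overlap and with a difference of 0.36 ± 0.16 (adjusted p = 0.236). The log2 3′ to 5′ ratio of the controls did not overlap either, at 2.09 to 4.85 on the e7 arrays and 0.93 to 1.47 on the mock arrays. Its part in the differences of Cd68 and Mcoln1 was not tested by itself. The difference between the genotypes in the 2 h response to e7 called no member, against 1.45% of all probe sets, with 3 members at an unadjusted p under 0.05. The KO minus WT response was largest for Tfeb, at 0.89, and lowest for Atp6v1c1, at -0.46 (adjusted p = 0.176), where the median over all genes was 0.20.

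The lower dose moved no member past the threshold. With e6 against mock no member was called in KO at 2 h, KO at 4 h, WT at 2 h or WT at 4 h, where 0, 1, 1 and 0 members had an unadjusted p under 0.05 in limma. Over all probe sets 0%, 0.0796%, 0% and 0.00884% were called in these comparisons. The largest differences each way were 0.30 for Gm2a and -0.20 for Atp6v1b2 in KO at 2 h, 0.34 for Gm2a and -0.22 for Lgmn in KO at 4 h, 0.28 for Glb1 and -0.33 for Atp6v1h in WT at 2 h, and 0.22 for Tfeb and -0.23 for Psap in WT at 4 h. The KO and WT responses to e6 were also tested against each other, and no member was called at 2 h or 4 h, against 0% and 0.00442% of all probe sets, with 0 and 1 members at an unadjusted p under 0.05. The KO minus WT response was largest for Lipa (0.32) and lowest for Tpp1 (-0.29) at 2 h, and largest for Psap (0.50) and lowest for Lgmn (-0.19) at 4 h. Between e7 and e6 in WT at 2 h no member was called, against 0% of all probe sets, with 1 member at an unadjusted p under 0.05, and the largest differences were 0.23 for Mcoln1 and -0.40 for Cd68.

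Mock instillation also left the set without a call. Against untreated macrophages no member was called in KO at 2 h, KO at 4 h, WT at 2 h or WT at 4 h, and 5, 4, 1 and 2 members had an unadjusted p under 0.05 in limma. Over all probe sets 0.00442%, 1.2%, 0.00442% and 0.0133% were called. In KO at 2 h the largest differences were 0.64 for Acp5 (adjusted p = 0.428) and -0.47 for Gm2a. In KO at 4 h Smpd1 was 9.10, 9.25 and 9.01 after mock, against 8.44, 8.06 and 8.73 untreated, without overlap and with a difference of 0.71. Gm2a was 10.52, 10.04 and 10.82 after mock in KO at 4 h, against 11.16, 10.93 and 11.45 untreated. Its arrays did not overlap either, and the difference was -0.72 (adjusted p = 0.08). In WT the largest differences were 0.41 for Cd68 and -0.37 for Glb1 at 2 h, and 0.37 for Neu1 and -0.43 for Atp6v0d1 at 4 h.

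Over all groups of a genotype, an F test in limma asked whether a gene varied with condition at all. In KO 2 members were called, Npc2 (adjusted p = 0.00887) and Npc1 (adjusted p = 0.047), which is 5.56% of the 36 genes, against 12% of all probe sets. In WT 11 members were called, 30.6% of the 36, against 18.4% of all probe sets. These were Ppt1, Glb1, Psap, Atp6v1c1, Arsa, Neu1, Atp6v1h, Tpp1, Cd68, Mcoln1 and Acp5.

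A second list held 71 further lysosomal genes, of which 55 were measured. In KO against WT over the 7 conditions 20 of them were higher and 7 lower, against 21.9% and 11.6% of all probe sets, with a median of 0.15 against 0.09 over all genes. The largest rises were those of Igf2r, the receptor that carries hydrolases tagged with mannose phosphate to lysosomes, at 1.83, of Slc11a1, a metal ion transporter of the phagosome, at 1.76 and of the sulfatase gene Arsg at 1.03. The largest falls were those of the sulfatase genes Ids (-0.92) and Galns (-0.33) and of Manba, a beta-mannosidase (-0.31). With e7 against mock in WT at 4 h, 5 were higher and 9 lower, against 5.84% and 9.68% of all probe sets, with a median of -0.10 against -0.08 over all genes. Naglu and Galns, both glycosaminoglycan-degrading hydrolases, fell by 1.49 and 1.21 and Vps11, a subunit of the vesicle tethering complexes, fell by 1.16, while Sumf1, which activates the sulfatases, rose by 0.81, Rragc by 0.64 and Laptm4a by 0.62. Atp6v0e, a further V0 subunit, fell by 0.43. In KO at 2 h with e7, 3 were higher and 4 lower, against 6.11% and 2.54% of all probe sets, with Siae (1.10), Mfsd8 (0.97) and Mtor (0.69) higher and Lamtor2 (-1.30), Gabarapl2 (-1.04) and Atp6v1f (-0.70) the largest falls. In KO at 4 h e7 against mock called none of the 55.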

How the data were processed

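Gene expression was measured on 51 Affymetrix mouse arrays. Per the labels, RNA was extracted from freshly harvested macrophages with RNeasy columns and labelled by the two-cycle procedure. The deposited values were signal intensity on a linear scale, 1 per probe set and array. The submitters' processing notes name GCOS and RMA, with no version and no role. Every array had the same mean, 500.2, after trimming 2% at each end. Precision is limited by the number of arrays. No genome build for the array design is given in the sources used here.

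Of 22690 probe sets, 64 controls were left out. Of the 22626 tested, 20380 had 1 gene symbol in the platform annotation, 691 several and 1555 none. Genes were named from those with 1 symbol. Intensity was taken to log2 with no pseudocount, filter or further normalization. A linear model from limma 3.58.1 (R 4.3.3; lmFit, then contrasts.fit and eBayes) held 1 mean for each of 15 groups over all 51 arrays, and gave two-sided tests of 24 comparisons and 2 F tests. Each probe set has 1 pooled spread, so in a group with an unusually wide spread the error and p-value are too small. The fit was tested on simulated data with known changes. A change of 1 log2 was called in 70% of the changed probe sets for e7 against mock in WT at 4 h. The share was 62% in KO at 2 h, 50% for beads against mock and 100% for KO against WT over the 7 conditions. A change of 0.5 log2 was called in 16%, 13%, 4% and 94%, in the same order. A comparison without a call thus does not show that a member was unchanged.

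Named in each comparison were the members called, or, with more than 12 called, the 6 largest each way, and where none was called the largest difference each way. Of the second lysosomal list, the 3 largest called each way were named, in 3 of the comparisons. Others are given beside these by role and were chosen after their values were seen. The members, lists and comparisons were chosen with earlier results of these data known. The second lysosomal list and the marker lists were written from general knowledge. Marker lists were summed on the linear scale. Promoter sequences were matched by symbol to RefSeq. No promoter entry was held for Asah1, Atp6v0d2, Atp6v1b2, Atp6v1c1, Atp6v1h and Npc1. Alternatives were quantile normalization, signals under 50 set to 50, the replicate number as a block, the 3′ to 5′ ratio of the Actb and Gapdh controls as a covariate, the mean of a gene's probe sets, the compared groups alone, each array left out, and 3 settings chosen after seeing the data.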

Additional observations from a re-analysis of the deposited data

Results flagged for a closer look

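In the 7 WT groups of 4 arrays, 252 sets of values were examined for 1 array far from the other 3, and 12 (4.76%) had one, about the 1 in 20 that chance gives. The high ones were Lamp1 in WT 2 h e6 replicate 1 (13.76, against 13.38 to 13.42 on the others), Gusb in WT 4 h mock replicate 4 (12.63, against 12.15 to 12.17), Npc2 in WT 4 h mock replicate 2 (13.73, against 13.42 to 13.47) and Ppt1 in untreated WT replicate 2 (11.94, against 11.76 to 11.79). Also high were Gaa in WT 4 h e6 replicate 3 (9.99, against 9.51 to 9.54), Mcoln1 in WT 4 h mock replicate 4 (10.32, against 9.79 to 9.86) and Atp6v0d1 in WT 4 h e6 replicate 4 (12.71, against 11.83 to 11.95). The low ones were Gusb in WT 2 h mock replicate 1 (12.31, against 12.42 to 12.44), Neu1 in WT 2 h mock replicate 4 (9.21, against 9.63 to 9.70), Tpp1 in untreated WT replicate 1 (12.17, against 12.36 to 12.39), Lgmn in WT 2 h e6 replicate 4 (9.96, against 10.34 to 10.37) and Atp6ap1 in WT 4 h e7 replicate 3 (11.68, against 12.09 to 12.13). All are log2 signals. The KO groups, of 3 arrays, could not be examined in this way.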

How the results depend on the processing

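Counts of members called by limma are given. KO against WT over the 7 conditions had 26 calls, 22 to 27 without 1 array, and 12 over untreated, 2 h mock and 2 h e6 alone, a setting chosen after seeing the data, where Smpd1 turned to -0.03. The remaining settings gave 23 to 29. With e7 against mock in WT at 4 h there were 12, 7 to 17 without 1 array, 1 without e7 replicates 2 and 3, 5 without the 3 WT 4 h arrays on which neutrophil markers were high (both chosen after seeing the data) and 0 in a fit of only the groups compared. For e7 against e6 there the count was 11, 8 to 19 without 1 array, 2 without e7 replicates 2 and 3, and 0 in the groups alone. For e7 against beads it was 4, 0 to 10 without 1 array, 2 after quantile normalization, 7 with the 3′ to 5′ covariate, 0 in the groups alone and 0 without e7 replicates 2 and 3. Beads against mock had 0, 0 to 1 without 1 array, and 2 with signals under 50 set to 50. In KO at 2 h, e7 against mock had 3, 0 without any 1 array and 0 in the groups alone, and e7 against e6 had 3, 0 to 4 without 1 array, 1 with the mean of a gene's probe sets and 0 in the groups alone. In KO at 4 h, e7 against e6 had 1, 0 to 1 without 1 array, 0 after quantile normalization, 0 with the covariate, 0 in the groups alone and 4 with signals set to 50. Untreated KO against WT had 3, 0 to 5 without 1 array, 5 with signals set to 50 and 0 in the groups alone. The genotype difference in the 4 h e7 response had 0, 0 to 10 without 1 array, and 1 with signals set to 50. KO 4 h e7 against mock, with 0, had 1 with signals set to 50, and KO 4 h mock against untreated, with 0, had 1 with the mean of probe sets. The F test had 11 in WT and 5 in the groups alone, and 2 in KO and 5 with signals set to 50. The cause of these changes was not tested.

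The labels give the same replicate numbers to the groups. The deviations of same-numbered arrays correlated at a median of 0.006 (-0.103 to 0.117), against -0.002 for different numbers. A median over all pairs cannot show whether some same-numbered arrays were prepared together, and the arrays were treated as unpaired. With the replicate block the count was 1 for beads against mock, 7 for e7 against beads and 4 for the F test in KO. In the other comparisons it stayed within 1.5 times the count without the block.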
